A study of Mus musculus with 4 samples.

Results

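The oligos described here were array probes in which 4 varied bases read pyrimidine, pyrimidine, purine, purine. On the opposite strand, the complement of the printed sequence, the purines read as a pyrimidine pair, so each such probe carried 2 dipyrimidine steps side by side, 1 on each strand. They were chosen by name. Of 6126 probe names, 5376 ended in 4 bases and belonged to 21 libraries of 256 names each. The 16 endings of this arrangement in each library gave 336 names, and all 336 had a distinct sequence. The rule itself uses no measured value, although it was written with earlier results of these arrays known. The study measured the binding of 2 mouse antibodies to these arrays, 1 against cyclobutane pyrimidine dimers (CPD) and 1 against 6-4 photoproducts (6-4PP), before or after ultraviolet (UV) irradiation. The groups were anti-CPD at a dilution of 1:400 on a UV array and on a non-UV array, and anti-6-4PP at 1:80 on a UV array and on a non-UV array, with 1 array each. The labels name the mouse, the source of the antibodies, while the measured items are designed DNA. Both 6-4PP arrays carry a title that contradicts their array condition field. The field was used here, and by it the 6-4PP UV array is the bright one. The labels describe neither the UV dose, nor the scanner settings, nor how the second strand was made.

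UV light links neighbouring pyrimidines on 1 strand of DNA. A CPD joins them through a cyclobutane ring, and a 6-4PP joins them by a single bond that also alters the 3′ base. Thymine pairs are a main site of CPD, and TT and TC steps are known sites of 6-4PP. Mammalian cells remove both lesions by nucleotide excision repair. MITF, TBP and p53, whose sites gave the libraries their names, are transcription factors that bind E-boxes, TATA boxes and p53 response elements.

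An ending is written below by its 4 bases on the listed strand, 5′ to 3′. Its first 2 bases are the listed type. The opposite type is the reverse complement of its last 2 bases, so a final AA gives opposite TT, a final GA gives TC, a final AG gives CT and a final GG gives CC. TTGG, for instance, has TT on the listed strand and CC on the opposite strand. The 4 endings that equal their own reverse complement have 1 type on both strands, and they are shown in 1 library, where nothing differs but the capitals, which mark the varied bases.
MITF_ebox_60_TTAA: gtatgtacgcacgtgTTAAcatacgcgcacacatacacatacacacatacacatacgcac
MITF_ebox_60_TCGA: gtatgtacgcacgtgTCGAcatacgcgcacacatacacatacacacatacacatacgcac
MITF_ebox_60_CTAG: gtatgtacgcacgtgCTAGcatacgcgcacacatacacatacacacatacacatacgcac
MITF_ebox_60_CCGG: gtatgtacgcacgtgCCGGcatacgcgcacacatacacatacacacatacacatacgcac
The other 12 endings form 6 pairs of reverse complements, in which the same types trade strands. In p53_E60 the 10 bases on either side of the varied bases mirror each other, so the 24 base pairs of a TTGG probe and of a CCAA probe are 1 duplex in opposite orientations. This pair is shown because the exchange between strands can be read from it with neighbours held the same.
p53_E60_TTGG: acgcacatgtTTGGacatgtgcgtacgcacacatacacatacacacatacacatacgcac
p53_E60_CCAA: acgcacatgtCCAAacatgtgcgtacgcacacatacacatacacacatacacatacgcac
The next 4 are the brightest and the dimmest member on the CPD UV array, then the brightest member below the detector ceiling and the dimmest member on the 6-4PP UV array.
p53_E_mut_60_TTAA: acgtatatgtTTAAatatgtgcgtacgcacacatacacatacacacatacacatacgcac
TBP_MUT_E59_CCGA: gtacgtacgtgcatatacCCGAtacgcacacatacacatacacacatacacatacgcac
TBP_MUT_E59_TCAG: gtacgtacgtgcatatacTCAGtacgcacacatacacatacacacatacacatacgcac
MITF_sebox_60_CTAG: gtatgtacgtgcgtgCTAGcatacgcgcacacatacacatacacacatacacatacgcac

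The backbones held 0 dipyrimidine steps outside the varied bases, and this count included the 10 bases at the 3′ end that all probes shared. The bases next to the varied ones could add steps. A pyrimidine before them extended the listed run to 3 pyrimidines, and a purine after them extended the opposite run. As a result, 7 libraries of 60 bases had members with 2 steps, 8 libraries of 59 bases had members with 3 steps and 6 libraries of 60 bases had members with 4 steps. Type pairs are therefore given for the 7 libraries with 2 steps as well as for all 21. Libraries share backbones and lie on the same arrays, so a count of libraries is a description and not a test over replicates.

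A member's value was the median intensity of its unflagged replicate spots, in scanner units that ended at 65535. There were 10 spots a name, and 8 to 10 on the 6-4PP arrays after flags. The median SD of replicate spots, on the log2 scale, was 0.59 for CPD with UV, 0.21 for CPD without UV, 0.28 for 6-4PP with UV and 0.15 for 6-4PP without UV. On the CPD UV array the local median intensity around member spots ran between 1111 and 8004, and the authors' spatially adjusted intensity had a spot SD of 0.31. For 112 members the same sequence was also printed under a second name. Those 2 names differed by a median of 0.23 (absolute log2 difference) for CPD with UV, 0.08 for CPD without UV, 0.08 for 6-4PP with UV and 0.06 for 6-4PP without UV. With 1 array in each group, no p-value between conditions was computed, and the spread between spots covers variation within an array only.

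All 336 members were brighter on the UV array than on the non-UV array with both antibodies, as were 100% of the four-base names. Members had a median of 4585.75 on the CPD UV array, with a range of 1041.5 to 12858, against a median of 30.5 on the CPD non-UV array. With the 6-4PP antibody the medians were 21168 on the UV array, with a range of 3898 to 65535, and 58 on the non-UV array. The median UV minus non-UV difference was 7.22 log2 units for CPD and 8.52 for 6-4PP. The 208 four-base names without any dipyrimidine step all belong to the 13 libraries of 60 bases, since the 8 libraries of 59 bases hold none. These names gave 6.38 and 6.53 log2 units, so most of the difference between arrays, on the log2 scale, was also seen on probes that lack a counted site. Scanner gain was not given for either array, and its part in that difference was not tested. On the CPD UV array 207 members, or 61.6%, exceeded the 95th percentile of the names without a step (3740), against 56.1% of all four-base names. On the 6-4PP UV array 317 members, or 94.3%, exceeded it, against 87.2% of all four-base names.

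On the CPD UV array, brightness followed thymines, above all TT on the listed strand. The 4 endings with listed TT were the 4 brightest by median. TTAA had a median of 9934 over the 21 libraries, with a range of 5232 to 12858, whereas CCGG, at the bottom, had a median of 2311.5 and a range of 1461.5 to 3628. The ranges of these endings did not overlap, but the endings were picked from the top and bottom of these same values. Among the endings with the same type on both strands the mean log2 intensity was 13.18 ± 0.33 for TTAA, 12.11 ± 0.48 for TCGA, 11.77 ± 0.38 for CTAG and 11.21 ± 0.36 for CCGG (SD over 21 libraries). TCGA and CTAG lay closer to each other than either SD. In MITF_ebox_60, whose sequences are printed above, TTAA read 5232 ± 2086, TCGA read 3003 ± 1480, CTAG read 2605.5 ± 994 and CCGG read 1929 ± 619 on this array (SD of 10 spots).

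The listed type had a wider span than the opposite type. Averaged over the opposite types, listed TT lay 0.87 log2 units above the mean of its library's members, listed TC 0.04 below it, listed CT 0.25 below it and listed CC 0.58 below it. Averaged over the listed types, opposite TT lay 0.51 log2 units above that mean, opposite TC 0.02 above, opposite CT 0.19 below and opposite CC 0.34 below. TT was above 0 and CC below 0 on either strand in 21 of 21 libraries. CT was below 0 in 20 of 21 libraries on either strand. TC lay near the mean, above 0 in 6 libraries on the listed strand and in 12 on the opposite strand.

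Some members did not rise above probes of their own library that lack a step. In the 7 libraries with 2 steps, TTGA averaged 3.43 times the median of the names without a step, TTAA 3.34 times, TTAG 3.17 times and TTGG 2.56 times. TCAA averaged 2.01 times and CTAA 1.95 times, and all of these were above 1 in 7 of 7 libraries. CCGG averaged 0.85 times and was above 1 in 0 of 7 libraries, and CCAG averaged 0.90 times and was above 1 in 1 of 7. CTGG averaged 0.98 times. Against the 95th percentile of all names without a step, each listed-TT ending and CTAA passed in 21 of 21 libraries, TCAA in 20, CCAA in 16, CTGG in 3, and CCAG and CCGG in 0. With the adjusted intensity, and the level taken anew from the names without a step on that scale, 69.0% of members passed. The share of all four-base names on that scale is not given, so a change particular to the members cannot be read from this value.

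The 6-4PP UV array gave another order, led by TC and TT and, on the listed strand, closed by CT. In the 7 libraries with 2 steps, where no median reached the ceiling, TCAA had the highest median of the 16 endings, 13235.5, with a range of 9272 to 47829.5. CTAG had the lowest, 5689.5, with a range of 3898 to 8280. These ranges did not overlap, but the endings were picked as the highest and lowest of the 16 by these same values. For the endings with the same type on both strands, the mean log2 intensity was 13.94 ± 0.73 for TCGA, 13.88 ± 0.68 for TTAA, 12.81 ± 0.26 for CCGG and 12.46 ± 0.44 for CTAG (SD over 7 libraries). TCGA and TTAA differed by far less than their SD. In MITF_ebox_60 the intensities were 10268 ± 2087 for TCGA, 11477 ± 1252 for TTAA, 6077 ± 1858 for CCGG and 4001 ± 2275 for CTAG (SD of 10 spots), so TTAA was the brighter of the first pair there.

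As multiples of the names without a step in the same library, TCAA averaged 3.58 times on the 6-4PP UV array, TCGA 3.17, TTAA 3.04, TCAG 2.98, TTGA 2.87 and TCGG 2.53, each above 1 in 7 of 7 libraries with 2 steps. CTGG averaged 1.23 times and CTAG 1.13 times, and CTAG was above 1 in 4 of 7. Over all 21 libraries, listed TC lay 0.67 log2 units above the mean of the library's members and listed TT 0.37 above it, each above 0 in 21 of 21 libraries. Listed CC lay 0.37 below that mean and listed CT 0.67 below, each above 0 in 0 of 21. Opposite TC and TT lay 0.35 and 0.21 log2 units above the mean, and opposite CT and CC 0.25 and 0.31 below, so CC was the lowest type on that strand. Of the 84 members with listed TC 33 were at the ceiling, of those with listed TT 23, with listed CC 2 and with listed CT 0, so these offsets over 21 libraries are compressed. In the 7 libraries with 2 steps and no value at the ceiling, listed TC lay 0.57 above, listed TT 0.29 above, listed CC 0.30 below and listed CT 0.57 below. CTAG missed the 95th percentile of the names without a step in 4 libraries and CTGG in 6, passing in 17 and 15 of 21.

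Classes of libraries with more steps had much higher 6-4PP medians, although single libraries overlapped between classes. On the 6-4PP UV array members had a median of 9326 in libraries with 2 steps, 26998 with 3 steps and 36358.5 with 4 steps. The lowest library with 4 steps, p53_E60, had a median of 16056.2 over its members. That was below the lowest library with 3 steps (MITF_ebox_59, 18064.5) and near the highest with 2 steps (TBP_60, 15400.5). On the CPD UV array the class medians were 3312, 5147.25 and 5544 in the same order. The ceiling was reached by 58 members on the 6-4PP UV array, 27 with 3 steps, 31 with 4 steps and 0 with 2 steps, against 5.71% of all four-base names. With 4 steps, TCGA averaged 12.2 times the names without a step on the 6-4PP UV array, a lower bound because 5 of its 6 libraries were at the ceiling, and CTAG averaged 2.92 times. CCGG with 4 steps averaged 1.00 times on the CPD UV array. These libraries also differ in backbone, and those with 3 steps in length. The part of either in the step comparison was not tested.

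The purine before the varied bases went with a difference on the 6-4PP UV array. Among the libraries with 2 steps, 2 had A before them (TBP_60 and TBP_MUT_60) and 5 had G. Listed-TC members averaged 15.03 ± 0.39 log2 units after A (8 names) and 13.43 ± 0.24 after G (20 names; SD over names). Listed-TT members averaged 14.43 ± 0.35 after A and 13.27 ± 0.28 after G. On the CPD UV array listed TC gave 11.73 ± 0.57 after A and 11.71 ± 0.39 after G, and listed TT gave 13.22 ± 0.16 after A and 12.68 ± 0.38 after G. Both libraries with A are TBP libraries and the 5 with G are MITF or p53 libraries, so base and backbone cannot be told apart.

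For pairs with TT, the ending with TT on the listed strand had the higher mean CPD signal, clearest in the libraries with 2 steps. TTGG exceeded CCAA in 19 of 21 libraries on the CPD UV array, by a mean of 0.59 log2 units (SD 0.44). TTAG exceeded CTAA in 20 of 21 libraries, by 0.47 (SD 0.39), and TTGA exceeded TCAA in 16 of 21, by 0.36 (SD 0.41). In the 7 libraries with 2 steps the differences were 0.85, 0.70 and 0.77 log2 units, and the TT-listed ending was the brighter in 7 of 7 for each pair. In the 8 libraries with 3 steps they were 0.39 (6 of 8 above 0), 0.46 (8 of 8) and 0.14 (3 of 8), and TTGA lay below TCAA by a mean difference of -0.19 in the 2 libraries with G before and A after. In the 6 libraries with 4 steps they were 0.53 (6 of 6), 0.21 (5 of 6) and 0.18 (6 of 6). TCGG minus CCGA (0.24, 15 of 21 above 0), CTGG minus CCAG (0.14, 12 of 21) and TCAG minus CTGA (-0.13, 9 of 21) had SDs of 0.49 to 0.65 and were smaller than those SDs. With the adjusted intensity TCAG minus CTGA was 0.03. Of the 63 differences in the pairs with TT, 29 exceeded the larger spot SD of the 2 names, or 46.0%, against 33.8% of all reverse-complement pairs of four-base names. Over all 6 pairs 35 of 126 did, or 27.8%.

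Libraries with mirrored neighbours hold the mirrored bases around the step pair fixed during the exchange. In p53_E60, TTGG had a CPD UV intensity of 9883 ± 1332 and CCAA had 6341 ± 1217 (SD of 10 spots), a difference of 0.64 log2 units. Without UV the CPD values were 32.5 for TTGG and 28 for CCAA. With the 6-4PP antibody the same probes read 14562 ± 2311 for TTGG and 11626 ± 2926 for CCAA after UV, and 35.5 and 36 without UV. The CPD UV medians of these probes lay further apart than their SDs, whereas the 6-4PP difference of 0.32 log2 units was of the order of its spot SDs. In p53_mut_60, where 5 bases mirror each other on either side, TTGG read 6141 ± 1438 and CCAA 2970 ± 826 on the CPD UV array. Over the 9 libraries with at least 1 mirrored base, the 3 differences with TT were 0.64, 0.46 and 0.51 log2 units for TTGG minus CCAA, TTAG minus CTAA and TTGA minus TCAA, each above 0 in 9 of 9. Apart from p53_E60 and p53_mut_60, those libraries mirror only 1 to 3 bases on either side, and bases further out are not held fixed. The inverted pairs still differ in which strand carries each type and in the distance of each step from the probe ends, which cannot be told apart.

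With the 6-4PP antibody the exchange had other pairs in front. TCAG exceeded CTGA in 20 of 21 libraries, by a mean of 0.69 log2 units (SD 0.55). TTAG exceeded CTAA in 21 of 21, by 0.61 (SD 0.44). TCGG exceeded CCGA in 19 of 21 by 0.45 (SD 0.37), with 2 libraries tied at the ceiling. CTGG lay below CCAG in 19 of 21, by a mean difference of -0.38 (SD 0.36). TTGG minus CCAA was 0.14 (SD 0.27, 15 of 21 above 0). TTGA minus TCAA was -0.13, with 10 libraries tied at the ceiling. Listed-CT endings never reached the ceiling, but TCAG and TTAG did in some libraries, so their means over 21 libraries are lower bounds. In the 7 libraries with 2 steps and no value at the ceiling, TCAG minus CTGA was 0.79. There TTAG minus CTAA was 0.60 and TCGG minus CCGA 0.53. Thus TC or TT on the listed strand gave the brighter probe when the partner was CT, and CC did so over CT. The larger spot SD was exceeded in 52 of 126 differences, or 41.3%, against 61.2% of all reverse-complement pairs.

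The size of the exchange on the 6-4PP UV array varied between libraries. In TBP_60, where the listed pair follows A and the opposite pair follows G, TCAG read 37895.5 ± 9600 and CTGA 11056 ± 4989, a difference of 1.78 log2 units. TBP_MUT_60 has the same neighbours and gave 1.65. The 5 libraries with G before both pairs averaged 0.41, with a range of -0.08 to 0.69. In the 2 MITF_Ex libraries with C before and A after the varied bases the mean was 1.47 log2 units. That mean is a lower bound, because TCAG was at the ceiling in both. Libraries with the same neighbours could differ, since with T before and A after p53_E60 gave 0.24 and p53_E_mut_60 gave 1.46, the second with TCAG at the ceiling. Neighbours and backbone cannot be told apart in these sets.

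The types on opposite strands did not combine by simple addition of log2 effects on the CPD UV array. Replacing opposite CC by opposite TT added 0.35 ± 0.21 log2 units when the listed type was TT (TTAA minus TTGG) and 1.03 ± 0.38 when it was CC (CCAA minus CCGG; SD over 21 libraries). The second difference was the larger in 20 of 21 libraries, and the departure from additivity averaged -0.69 (SD 0.41). In the 7 libraries with 2 steps it averaged -0.35 (SD 0.30), below 0 in 6 of 7. In intensity units the same replacement added 1938 with listed TT and 2630 with listed CC over all libraries, and 1850 with listed TT and 1394 with listed CC in the libraries with 2 steps. The sign in the 2-step libraries thus turned with the scale. For TC in place of CC on the CPD UV array the departure was -0.04 (SD 0.61).

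For 6-4PP the departure for TT in place of CC on the UV array ran the other way. It averaged 0.41 log2 units (SD 0.31) and was below 0 in 1 of 21 libraries, although 11 of the libraries had a value at the ceiling. In the 7 libraries with 2 steps, none of which reached the ceiling, it averaged 0.23 (SD 0.10) and was below 0 in 0 of 7. There opposite TT added 0.61 log2 units with listed TT and 0.38 with listed CC. The departure for TC in place of CC was -0.35 (SD 0.61) over all libraries and 0.04 (SD 0.15) in those with 2 steps.

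The antibodies differed in the order of listed TT and listed TC, and of CT and CC, by an amount that depended on the opposite type. With opposite CC, TTGG minus TCGG was 1.03 log2 units on the CPD UV array (SD 0.42, above 0 in 21 of 21 libraries) and -0.56 on the 6-4PP UV array (SD 0.26, above 0 in 0 of 21). With opposite CT, TT minus TC was 1.18 for CPD UV and -0.45 for 6-4PP UV. With opposite TC it was 0.96 and -0.11, and with opposite TT 0.47 and -0.07, where the 6-4PP differences were below their SDs and many of these probes were at the ceiling. With opposite CT or CC some 6-4PP values were at the ceiling too. In the 7 libraries with 2 steps, where none was, TT minus TC for 6-4PP UV was -0.35 with opposite CC. It was -0.41 there with opposite CT. With opposite CT, CTAG minus CCAG was 0.51 on the CPD UV array (above 0 in 19 of 21) and -0.59 on the 6-4PP UV array (above 0 in 1 of 21). For CT minus CC with opposite TT the values were 0.26 for CPD UV and -0.20 for 6-4PP UV, with opposite TC 0.38 and -0.09, and with opposite CC 0.18 (above 0 in 13 of 21) and -0.31. Relative to the median of all four-base names on each array, TCAG lay 0.20 log2 units below on the CPD UV array and 1.09 above on the 6-4PP UV array. CTAG lay 0.24 below on the CPD UV array and 0.72 below on the 6-4PP UV array. By step number, TCAG lay at -0.44 for CPD UV and -0.06 for 6-4PP UV with 2 steps, -0.28 and 1.56 with 3 steps, and 0.18 and 1.79 with 4 steps, so it lay on different sides of the medians only with 3 steps. CTAG lay below both medians in all 3 step classes.

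Without irradiation most of this structure was small. On the CPD non-UV array TTAA had a median of 42.5, with a range of 32 to 77.5, and CCGG a median of 28, with a range of 25.5 to 32. These ranges met at 32, and TTAA minus CCGG averaged 0.70 log2 units. The direction was thus the same on this separate array, at intensities far below those of the UV array. What share of the UV order this makes was not tested. The 3 exchange pairs with TT averaged 0.21 to 0.26 log2 units on this array, and TTAG minus CTAA was between 0.84 and 1.14 in the 4 TBP libraries with A before the varied bases. TBP_60_TTAG read 66 ± 10 on the CPD non-UV array and TBP_60_CTAA 34.5 ± 3.9 (SD of 10 spots). On the 6-4PP non-UV array TTAA minus CCGG averaged 0.17 and all 6 exchange differences lay between -0.03 and -0.01. Above the 95th percentile of the names without a step lay 44.3% of members for CPD without UV, against 36.1% of all four-base names, and 29.8% for 6-4PP without UV, against 25.8%. The larger spot SD was exceeded in 18.3% of the exchange differences for CPD without UV and 15.9% for 6-4PP without UV, against 26.3% and 26.7% of all reverse-complement pairs.

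The reversed arrangement, purine, purine, pyrimidine, pyrimidine, also gives 1 dipyrimidine on each strand, but its neighbours extend the runs in the opposite cases. The comparison at equal step number is therefore that within the 8 libraries of 59 bases, where both arrangements have 3 steps. There the members were 0.56 log2 units brighter than the reversed endings with the same types on the 6-4PP UV array (SD 0.59, brighter in 6 of 8 libraries). The ceiling held 27 of the 128 members and 7 of the 128 reversed endings there, and over the 97 pairs with neither at the ceiling the difference was 0.52 (SD 0.53, 6 of 8 libraries). TCGG minus GGTC was 1.80, CCGA minus GACC 1.51 and CCGG minus GGCC 1.01, each above 0 in 8 of 8, the first a lower bound because 1 TCGG value was at the ceiling, whereas CTAG minus AGCT was -1.11, above 0 in 0 of 8. On the CPD UV array the mean difference was -0.14 (SD 0.23), and TTAA minus AATT was -0.47, above 0 in 0 of 8. The step that a neighbour adds can be of another type in the reversed ending. With C before and T after, CTAG lies in a listed CCT run and AGCT in a listed CTT run. Likewise TTAA lies in a CTT run and AATT in a TTT run. The part of the added step in these differences was not tested. Where members had 2 steps and the reversed endings 4, the 6-4PP UV difference was -2.00, with 37 of the 112 reversed endings at the ceiling, so the true gap is at least this wide. With 4 steps against 2 it was 1.54, with 31 of 96 members and 6 of 96 reversed endings at the ceiling, so its size is not resolved.

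A pyrimidine in place of the last purine removes the opposite step inside the varied bases. In the 10 libraries with a purine after them, where this change loses 2 opposite steps, the members exceeded the changed endings by 0.45 log2 units on the CPD UV array and by 1.29 on the 6-4PP UV array, in 10 of 10 libraries each. The 6-4PP value is a lower bound, since 40 of those 160 members and 0 of the changed endings were at the ceiling. In the 11 libraries with a pyrimidine after them the change trades an opposite step for a listed one. The members were then lower by a mean difference of -0.26 on the CPD UV array, above 0 in 0 of 11, and of -0.28 on the 6-4PP UV array, above 0 in 4 of 11, with 18 of 176 members and 10 of 176 changed endings at the ceiling. The 6-4PP mean joined unlike values, 0.59 with opposite TC (8 of 11 above 0), -0.09 with opposite CC, -0.52 with opposite TT and -1.07 with opposite CT (0 of 11). For CPD UV they were 0.10 with opposite TT, -0.10 with TC, -0.45 with CC and -0.58 with CT.

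The extremes were picked from the same values as the orders above, and they add no separate evidence for them. On the CPD UV array the 3 brightest members were p53_E_mut_60_TTAA at 12858 ± 2553, TBP_MUT_59_TTGA at 12590 ± 3268 and TBP_59_TTAG at 12117 ± 1886, all with listed TT (SD of 10 spots). The 3 dimmest all had listed CC. They were TBP_MUT_E59_CCGA at 1041.5 ± 2280, TBP_MUT_60_CCAG at 1432 ± 1054 and TBP_MUT_E60_CCGG at 1461.5 ± 1271. Their spot SDs were of the order of their medians, and the adjusted intensity of the first was 2247, so their order among the dim members was not resolved. On the 6-4PP UV array the 3 brightest below the ceiling were TBP_MUT_E59_TCAG at 65247, TBP_E60_TTAG at 64912 and TBP_MUT_59_TCAG at 62755.5. The 3 dimmest were all CTAG, in MITF_sebox_60 at 3898 ± 2142, MITF_ebox_60 at 4001 ± 2275 and p53_mut_60 at 4747 ± 1649. TBP_MUT_E59_CCGA, the dimmest for CPD, read 42460 on the 6-4PP UV array. By library, the highest and lowest medians over the 16 members were 6390 in p53_E_mut_60 and 2921.5 in MITF_ebox_60 on the CPD UV array, and 60334 in TBP_E60 and 7711.25 in MITF_sebox_60 on the 6-4PP UV array. On the non-UV arrays they were 35.5 in p53_E_mut_60 and 27.75 in p53_60 for CPD, and 69.25 in MITF_Ex_ebox_60 and 36.5 in p53_E60 for 6-4PP.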

How the data were processed

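Fluorescence intensity of the Alexa label per spot was deposited on a linear scale, per the file headers. The authors' columns also give intensity with flagged spots left out, a local median intensity and a spatially adjusted intensity. The software and settings behind them were not stated in the labels. Cy3 is 1 at every spot, so intensity is not corrected for the amount of DNA. Names were read without their spot number, and the value of a name was the median of its unflagged spots, taken to log2. Differences were formed within a library and averaged over libraries, with Python 3.11.15, numpy 2.4.6 and pandas 2.3.3. The formulas for TTGG minus CCAA, TCGG minus CCGA and the departure from additivity for TT were tested on simulated data without a ceiling. The other results were not part of that test. Dipyrimidine steps were counted on both strands over the whole printed sequence, with the shared 10 bases at the 3′ end included. Each group holds 1 array, so no p-value is given.

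The endings, pairs and extremes to be named followed a written rule: all 16 endings, all 6 exchange pairs, the 3 brightest and 3 dimmest members on each UV array, and the libraries with the highest and lowest medians. The members and lists were chosen with earlier results of these data known. The brightest members at the ceiling have no order, so those below it were named. The mirrored-neighbour libraries, the additivity alternatives, the names without a step as a reference, the split by step number and the pairs below the ceiling were added after seeing the data. Alternatives were a mean over spots, the adjusted intensity, keeping flagged spots, subsets of libraries, names at the ceiling left out, linear intensity, other background levels and the titles of the 6-4PP arrays.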

Additional observations from a re-analysis of the deposited data

How the results depend on the processing

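Across 511 alternative values of the results tested, 469 moved by less than the spot SD or counting interval, 34 moved further and 8 changed sign by more. The spot SD is that of single spots, whereas most of the values are means over libraries, so it is a loose limit. For CPD with UV it was 0.59, no smaller than any exchange difference over 21 libraries. Such a difference could vanish and still count among the 469. Of the 469, 23 lay at 0 or on the other side of it, 5 of them TCAG minus CTGA on the CPD UV array, a difference whose direction is thus not settled. Reading the 6-4PP condition from the titles turned the UV minus non-UV difference to -8.52 and TTGG minus TCGG on the array then called UV to 0.061. The 6-4PP UV minus non-UV difference was 8.23 in 60-base libraries, 8.87 without MITF, 8.15 without TBP, 7.57 in libraries whose neighbours add no step and 8.18 without names at the ceiling. TTAA minus CCGG on the 6-4PP UV array was 1.67 in 59-base libraries, 1.07 where neighbours add no step and 1.01 without names at the ceiling. Members minus endings with a last pyrimidine, for 6-4PP UV, came to 0.90 in 59-base libraries and -0.66 where neighbours add no step. Members minus the reversed arrangement, for 6-4PP UV, came to 0.56 in 59-base libraries, -0.37 in 60-base libraries, -0.47 without TBP, -2.00 where neighbours add no step and 0.52 with 3 steps and neither name at the ceiling, and the number of steps differs between these sets by construction. The departure from additivity for TC on the 6-4PP UV array was 0.045 where neighbours add no step, 0.10 without names at the ceiling and -4650 in intensity units, and on the CPD UV array it was 133 in intensity units. For TT it was 14818 for 6-4PP and -691 for CPD in intensity units. Leaving out libraries or using another intensity also moves the background level, which was taken anew from the names without a step in the libraries kept. The share of members above background on the CPD UV array was 69.0% with adjusted intensity, 71.7% without p53, 43.75% where neighbours add no step (45.5% at the level from all libraries) and 5.06% against all four-base names. On the CPD non-UV array it was 33.9% at the 99th percentile, 8.33% against all names, 50% without p53 and 38.4% where neighbours add no step. On the 6-4PP UV array it was 90.9% in 60-base libraries, 89.6% at the 99th percentile, 0% against all names, whose 95th percentile is the ceiling, 88.0% without TBP, 97.1% without p53 and 83.0% where neighbours add no step. On the 6-4PP non-UV array it was 18.3% in 60-base libraries, 18.5% at the 99th percentile, 5.65% against all names, 36.1% without TBP and 14.3% where neighbours add no step. Except where given above, the cause was not tested. The share was not run for 59-base libraries, which hold no names without a step, nor in linear units, where the count is the same. No paired analysis was possible because each group holds 1 array. The ceiling limits order among bright 6-4PP members, and uneven local intensity limits order among dim CPD members.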
